A study of Mus musculus with 4 samples.

Results

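The autophagy and lysosome genes examined here are 34 mouse genes, taken as a fixed list from the induction of the autophagosome to digestion in the lysosome, out of 53647 genes in the count tables. All 34 were found in the tables and all 34 had enough counts to be tested, among 15173 genes tested. Their mRNA was measured by bulk RNA sequencing of wild-type (WT) mouse primary myotubes, which are multinucleated muscle cells formed in culture by fusion of myoblasts isolated from the limb muscles of newborn pups. The control group and the group given recombinant EDA-A2 (250 ng/mL for 24 h) had 2 libraries each, and both groups had differentiated for 48 h in medium with horse serum before the treatment and were harvested at 72 h. EDA-A2 is a splice form of ectodysplasin A and the ligand of the ectodysplasin A2 receptor (EDA2R), a receptor of the tumour necrosis factor receptor family studied for its part in muscle wasting. The comparison asks what 24 h of EDA-A2 did to the transcripts of the autophagy and lysosome machinery in cultured muscle cells. Genotype, cell type and medium were shared by both groups, the labels do not say whether the 2 libraries of a group came from separate cultures or animals, and p-values therefore measure only the spread between these libraries, which may be technical.

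Autophagy encloses cytoplasm in a double membrane, the autophagosome, and delivers it to lysosomes for breakdown. A kinase complex around Ulk1 starts the process, a lipid kinase complex around Becn1 marks the membrane, Atg9a and Atg2a bring in membrane and lipid, and 2 ubiquitin-like conjugation systems attach Atg8 family proteins (LC3 and GABARAP) to the growing membrane. Cargo receptors such as Sqstm1 bind the Atg8 proteins on the inner face, and cathepsins digest the content after fusion with lysosomes. In skeletal muscle the pathway is known for protein and mitochondrial turnover and for its induction during fasting, denervation and cachexia, when transcription factors of the FOXO and MiT/TFE families raise several of its genes. Tfeb, a MiT/TFE factor, binds DNA at E-boxes of the sequence CACGTG, often flanked as TCACGTGA, near the start sites of lysosomal genes.

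Promoter sequences in RefSeq (GRCm38.p6, from 250 bases before to 50 bases after the annotated start) were at hand for 27 of the 34 genes, as 30 entries. CACGTG, which reads the same on both strands, stood in 8 of the 30 entries (26.7%), against 7.15% of all 32851 promoters of the same length. The longer TCACGTGA, which contains it and is also its own reverse complement, stood in 2 (6.67%), against 0.974% of all promoters. The 8 genes were Atg3, Atg5, Atg7, Atg14, Bnip3, Ctsd, Ctsl and Lamp1. The RefSeq start can lie inside the gene as GENCODE gives it, farthest for Atg7, Atg5 and Atg14. The Atg7 box lies in chr6:114647913-114647942 on the plus strand, in a gene that starts at 114620044. Windows of 30 bases are shown, chosen after the values were known, for the 3 genes with more than 1 box and for Bnip3, the most abundant member per kilobase. Each window is given 5′ to 3′ on the gene's strand, matched GRCm39 at exactly 1 place on its chromosome, and has CACGTG in capitals:
Lamp1: atatCACGTGgtccagcgccCACGTGatgc
Ctsd: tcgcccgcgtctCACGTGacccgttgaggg
Atg3: CACGTGtcctgggagagtcgagtCACGTGa
Bnip3: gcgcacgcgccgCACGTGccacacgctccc
The Lamp1 window lies at chr8:13209096-13209125 on the plus strand, its boxes begin 61 and 45 bases before the RefSeq start, and a further 2 boxes begin 28 and 15 bases before it. The Ctsd window lies at chr7:141941645-141941674 on the minus strand, 98 bases before the RefSeq start, and another box begins 245 bases before it. The Atg3 window lies at chr16:44979098-44979127 on the plus strand with boxes 94 and 71 bases before the start, and the Bnip3 window at chr7:138511326-138511355 on the minus strand with its box 108 bases before the start. GENCODE transcripts of Ctsd and Atg3 have an exon over the whole 30 bases and a Lamp1 exon covers 5 bases, while no exon of Bnip3 covers its window. These letters describe the DNA only, and binding of Tfeb was not measured.

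Counts on genes summed to between 29444155 and 29746863 per library, and 278 to 48314 of them fell on each of the 34 genes in a library. Levels below are normalized counts, that is, counts scaled to a common library size by the TMM method, and are given for control 1, control 2, EDA-A2 1 and EDA-A2 2 in that order. Differences are log2 fold changes, EDA-A2 minus control, tested across all 15173 genes with the quasi-likelihood test of edgeR, and a gene was called at a Benjamini-Hochberg adjusted p under 0.05. The chi-square per gene was 9.94 between the control libraries, 4.73 between the EDA-A2 libraries and 16 to 22.1 between conditions, so no library was a copy of another and the control libraries stood farther apart.

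None of the 34 autophagy and lysosome genes was called higher and none was called lower after EDA-A2 by edgeR, where 2.45% of all genes tested were called higher and 2.13% lower. At an unadjusted p under 0.05 edgeR gave 4 of the 34 genes (11.8%), against 15.6% of all genes. The DESeq2 Wald test called 0 of the 34, where it called 294 higher and 271 lower of all 15173 genes. It gave 1 of the 34 at an unadjusted p under 0.05, and its share over all genes at that p is not given here, so the 15.6% of edgeR is no background for it. The median log2 fold change of the 34 was -0.02, beside 0.00 for all genes, with 14 above 0 and 20 below, and single values ran from -0.21 for Map1lc3a to 0.28 for Atg2a. The lowest adjusted p by edgeR was 0.125 (Atg2a) and the next 0.289 (Map1lc3a). Both EDA-A2 libraries lay above both controls for 4 genes (11.8%, all genes 22.8%) and below both for 8 (23.5%, all genes 22.2%), and the groups overlapped for the other 22.

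The intervals give the range of change that edgeR allows for each gene. They rest on a spread between these libraries that edgeR estimates by sharing across genes, not on the gene's own replicates alone. The 95% interval of every one of the 34 genes, not adjusted for the number of genes, lay inside 0.5 on the log2 scale in either direction, that is between 0.707-fold and 1.41-fold, and 19 lay inside 0.25. The lowest bound was -0.40 (Map1lc3a) and the highest 0.48 (Atg2a). Standard errors ran from 0.065 to 0.124 with a median of 0.078. Among all genes the smallest absolute log2 fold change that was called was 0.242, and Atg2a alone of the 34 exceeded that size. The difference of Atg2a was not called, although changes of its size were called in other genes, and a p that misses the threshold does not show that the levels were equal.

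**Figure D1:**
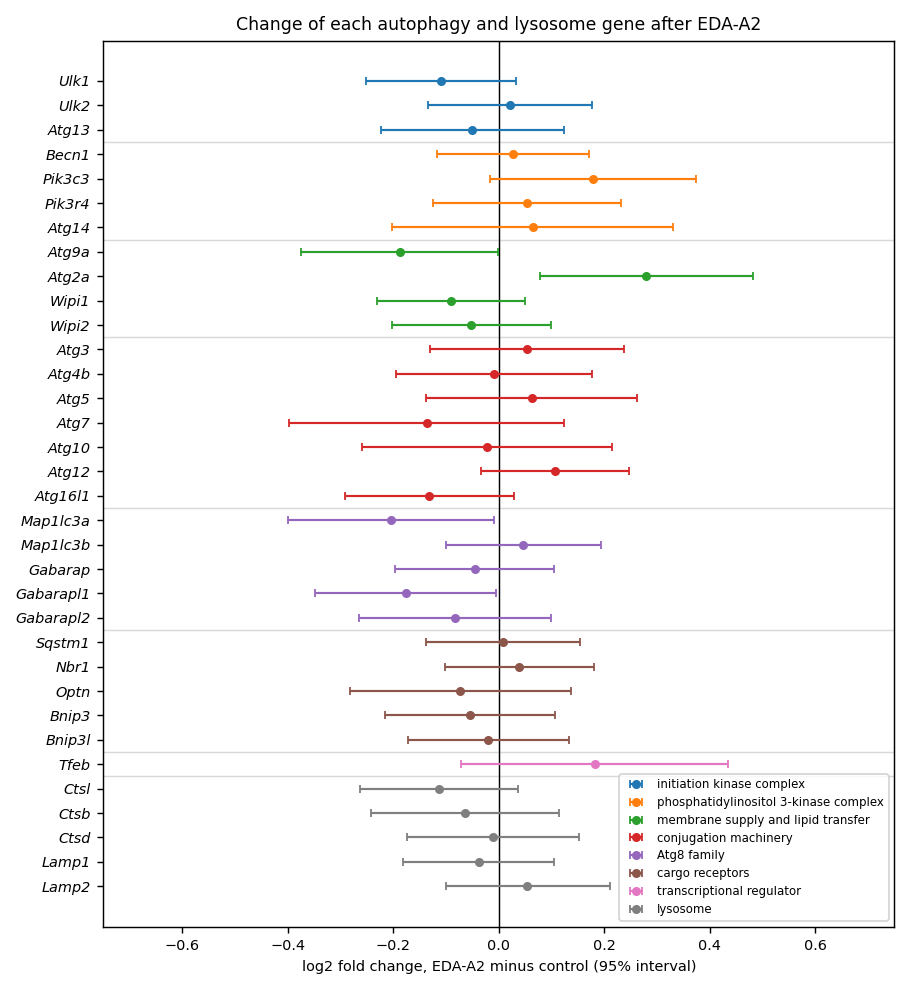
Log2 fold change of each of the 34 genes (horizontal axis, EDA-A2 minus control) with its 95% interval from edgeR as a bar, grouped and coloured by step of the pathway. The bars of 30 genes cross 0, those of Atg9a, Map1lc3a and Gabarapl1 end just below it, and that of Atg2a, from 0.08 to 0.48, lies above it.

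The initiation kinases and their partner showed no called change. Ulk1 (chr5:110931496-110957995, minus strand of GRCm39, as for all gene coordinates here) encodes the kinase that starts autophagosome formation, and it had 3289, 3320, 3044 and 3079 normalized counts. Both EDA-A2 libraries of Ulk1 lay below both controls, and the groups were tight, with means of 3304 ± 21.8 and 3062 ± 24.4 (SD, n = 2 libraries each, edgeR log2 fold change -0.11, SE 0.066, adjusted p = 0.486). Ulk2, its paralog, had 1753, 1720, 1811 and 1712, and the groups overlapped. Atg13, the adaptor through which the mTORC1 kinase controls the complex, had 1333, 1442, 1283 and 1398, again with overlap, and its log2 fold change of -0.05 turned to 0.004 under scaling to total counts. Exons of Arhgap1 on the opposite strand cover 32.8% of the exon bases of Atg13. The strand option of the counting is not given in the sources used here, so how reads over bases shared with such neighbours were assigned is not known. Over all genes 0.946% to 0.986% of pairs were set aside as ambiguous.

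The phosphatidylinositol 3-kinase complex makes the lipid PI3P on the forming membrane. Its 4 genes were all slightly higher in EDA-A2 libraries on average, with log2 fold changes from 0.03 to 0.18 and none called. Over all genes tested 7508 of 15173 were above 0, and a shift of the complex as a whole was not tested. Pik3c3 (chr18:30405791-30482373, plus strand), the catalytic subunit Vps34, had 598, 630.2, 698 and 692 normalized counts. Its EDA-A2 libraries lay close together and above both controls, a 13.2% difference (614 ± 23.1 against 695 ± 4.26, edgeR log2 fold change 0.18, SE 0.091, 95% interval -0.02 to 0.37, adjusted p = 0.384). Becn1 (chr11:101176769-101193122, minus strand), the Beclin 1 scaffold, had 2492, 2495, 2534 and 2543. The 4 Becn1 values differed by a very small amount and still did not overlap between groups, a 1.81% difference in means. Cntd1 on the opposite strand shares 43.8% of its exon bases. Pik3r4, the regulatory subunit Vps15, had 892, 960, 958 and 964, so that control 1 alone was low, and its log2 fold change of 0.05 went to -0.001 without that library. Atg14, the subunit that directs the complex to autophagosomes, had 288, 280.3, 279 and 315, with EDA-A2 2 alone high and a log2 fold change of 0.07, which was -0.03 without that library.

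Of the genes for membrane supply and lipid transfer none was called, and the signs of their log2 fold changes were mixed. Atg2a, the highest value of the list, was above 0 and the other 3 were below it, 1 of which (Wipi2) was above 0 under scaling to total counts. Atg2a (chr19:6291698-6312365, plus strand) encodes a bridge-like protein that moves lipid from the endoplasmic reticulum to the growing membrane, and it had 569.8, 601, 740 and 681 normalized counts. Both EDA-A2 libraries were above both controls (585 ± 22.1 against 711 ± 41.7, 21.4% higher, edgeR log2 fold change 0.28, SE 0.094, 95% interval 0.08 to 0.48, unadjusted p = 0.00988), and with the adjusted p of 0.125 the difference failed the correction for all genes. Atg9a (chr1:75157503-75169327, minus strand), the membrane protein of the vesicles that seed autophagosomes, had 1379, 1181, 1133 and 1113. Control 1 was the high library there, and the difference of -12.2% (edgeR log2 fold change -0.19, SE 0.087, adjusted p = 0.316) was smaller than the log2 difference of 0.22 between the controls themselves. Without control 1 the log2 fold change of Atg9a was -0.07, and without control 2 it was -0.30. Wipi1, which binds PI3P, had 4091, 4190, 3894 and 3879, below both controls in both EDA-A2 libraries and not called (log2 fold change -0.09). Wipi2, which recruits Atg16l1, had 2315, 2231, 2248 and 2136 with overlapping groups, and its log2 fold change moved from -0.05 to 0.003 under scaling to total counts.

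**Figure D2:**
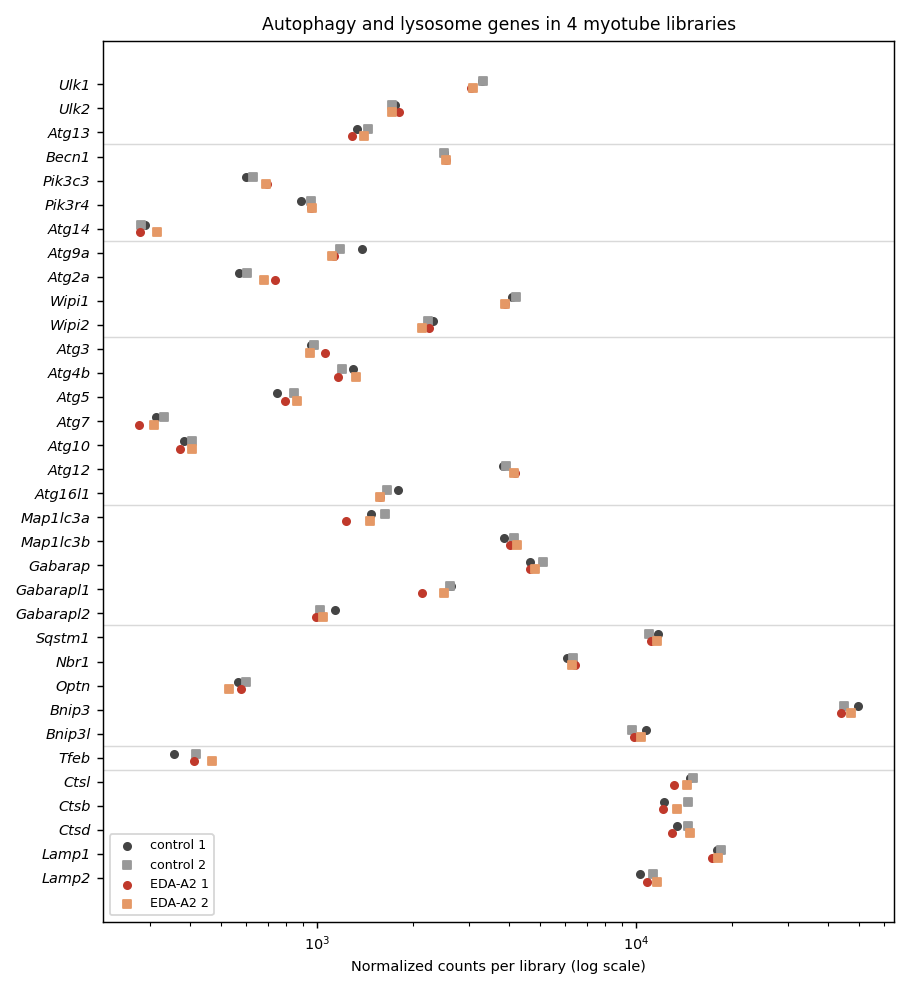
Normalized counts (log axis) of the 34 genes in each of the 4 libraries, with grey and black symbols for control and red and orange for EDA-A2, and lines between steps of the pathway. The symbols of a gene lie close together on an axis that spans from 277 (Atg7) to 49778 (Bnip3).

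The conjugation machinery, 7 genes of the E1-like, E2-like and scaffold proteins, had a median log2 fold change of -0.01 and no called gene. Summed normalized counts were 9322, 9316, 9417 and 9569. Atg12 (chr18:46862694-46874886, minus strand), the ubiquitin-like protein joined to Atg5, had 3827, 3903, 4179 and 4146, higher in both EDA-A2 libraries by 7.69% (edgeR log2 fold change 0.11, SE 0.065, adjusted p = 0.496). Atg16l1 (chr1:87683592-87720150, plus strand), which places the Atg12-Atg5 conjugate on the membrane, had 1793, 1661, 1576 and 1575. The 2 EDA-A2 libraries of Atg16l1 were nearly equal and below both controls (edgeR log2 fold change -0.13, SE 0.075, adjusted p = 0.448), and the log2 fold change was -0.08 without control 1. Atg7 (chr6:114620044-114837576, plus strand), the E1-like enzyme that serves both conjugation systems, had 312, 332, 277 and 309, with 312 and 309 as the closest values of the groups and a log2 fold change of -0.14 that was -0.06 without EDA-A2 1 and -0.22 without EDA-A2 2. The other 4 genes overlapped between groups. Atg3, the E2-like enzyme for the Atg8 proteins, had 960.2, 975, 1061 and 947, and Atg5 had 747, 844, 794 and 867. Atg10, the E2-like enzyme for Atg12, had 383, 405, 371 and 405, and Atg4b, the protease that primes and releases Atg8 proteins, had 1300, 1195, 1159 and 1320. For Atg4b and Atg10 the log2 fold changes of -0.01 and -0.02 changed sign under scaling to total counts, to 0.05 and 0.03.

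The Atg8 family proteins are the ubiquitin-like tags of the autophagosome, and 4 of the 5 genes had log2 fold changes below 0, of which 3 stayed below 0 under scaling to total counts and Gabarap did not (0.01). Map1lc3a (chr2:155118217-155119998, plus strand), the LC3A gene, had 1471, 1636, 1233 and 1463 normalized counts. The values of Map1lc3a were lower in EDA-A2 libraries with 1471 and 1463 as the closest pair, and the spread within groups was wide (1553 ± 116 against 1348 ± 163, edgeR log2 fold change -0.21, SE 0.091, unadjusted p = 0.041, adjusted p = 0.289). The log2 fold change of Map1lc3a was -0.09 without EDA-A2 1, -0.33 without EDA-A2 2 and -0.13 without control 2. Gabarapl1 (chr6:129509725-129520544, plus strand) had 2630, 2601, 2128 and 2500. The controls of Gabarapl1 lay close together and EDA-A2 1 far below them, with EDA-A2 2 in between (2616 ± 21 against 2314 ± 263, edgeR log2 fold change -0.18, SE 0.080, unadjusted p = 0.0443, adjusted p = 0.301). Without EDA-A2 1 the log2 fold change of Gabarapl1 was -0.07, and without EDA-A2 2 it was -0.30. Map1lc3b, which encodes LC3B, the usual protein marker of autophagosomes, had 3865, 4128, 4030 and 4224 and overlapping groups. Gabarap had 4641, 5125, 4644 and 4813, and Gabarapl2 1136, 1023, 991 and 1047, also with overlap. As a share of all Atg8 family counts, not corrected for transcript length, Map1lc3b took 28.1% and 28.4% in controls and 30.9% and 30.1% in EDA-A2 libraries. Map1lc3a took 10.7% and 11.3% in controls and 9.47% and 10.4% in EDA-A2 libraries. Near-identical copies elsewhere in the genome (98% identity or more over at least 200 bases) cover 58.9% of the Map1lc3b transcript and 54.7% of that of Gabarapl2, so their counts are uncertain where reads could not be placed uniquely.

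Cargo receptors link substrates or organelles to the Atg8 proteins, and none of the 5 separated between groups. Sqstm1 (chr11:50089572-50107684, minus strand), the receptor p62 for ubiquitinated proteins, had 11681, 10985, 11126 and 11658 normalized counts. That is a difference of 0.52% between means of 11333 ± 492 and 11392 ± 376, within the spread of either group (edgeR log2 fold change 0.01, SE 0.068, 95% interval -0.14 to 0.15, adjusted p = 0.976). Bnip3 (chr7:138490690-138511253, minus strand), a mitophagy receptor of the outer mitochondrial membrane, had 49778, 44966, 43957 and 47254. Its libraries interleaved, with control 1 highest, EDA-A2 1 lowest and a log2 fold change of -0.05 (edgeR, SE 0.075, adjusted p = 0.821). Bnip3l, the related mitophagy receptor also called Nix, had 10728, 9730, 9849 and 10333, and the sign of both genes changed under scaling to total counts (0.00 for Bnip3 and 0.04 for Bnip3l). Nbr1, a receptor that works with p62, had 6063, 6342, 6454 and 6286, and Optn, the receptor optineurin, had 564, 598, 576 and 528. Copies of high identity cover 39.7% of the Bnip3l transcript and 23.5% of that of Bnip3.

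Tfeb (chr17:48047837-48103348, plus strand), the transcription factor of lysosomal and autophagy genes, had 356, 417, 411 and 468 normalized counts. The groups overlapped, since control 2 exceeded EDA-A2 1, and the means of 387 ± 43.1 and 439 ± 40.4 differed by 13.5% (edgeR log2 fold change 0.18, SE 0.118, 95% interval -0.07 to 0.44, adjusted p = 0.531). That log2 fold change was 0.07 without control 1, 0.30 without control 2, 0.27 without EDA-A2 1 and 0.09 without EDA-A2 2. Tfeb activity is set largely by its phosphorylation and location, which mRNA counts do not measure. Of the 8 genes with a CACGTG in the promoter window, Atg3, Atg5, Atg14, Bnip3, Ctsd and Lamp1 overlapped between groups. Atg7 and Ctsl had both EDA-A2 libraries below both controls without being called. Over all genes tested 22.2% lay below both controls in that way, and a link with the motif was not tested.

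The lysosomal genes had 68534, 73858, 66471 and 72170 summed normalized counts, so each group held a lower and a higher library, and in each of the 5 genes library 2 exceeded library 1 in both groups. Ctsl (chr13:64507151-64518704, minus strand), the cysteine protease cathepsin L that is raised in many forms of muscle atrophy, had 14748, 15093, 13161 and 14419. Both EDA-A2 values of Ctsl were below both controls, by 7.57% in the means (14920 ± 244 against 13790 ± 889.7, edgeR log2 fold change -0.11, SE 0.070, adjusted p = 0.5), and the log2 fold change was -0.05 without EDA-A2 1 and -0.18 without EDA-A2 2. Ctsb, cathepsin B, had 12232, 14499, 12176 and 13387, with a log2 difference of 0.25 between the controls alone. Ctsd, the aspartic protease cathepsin D, had 13395, 14506, 12987 and 14707, and its log2 fold change of -0.01 became 0.04 under scaling to total counts. Lamp1, a heavily glycosylated protein of the lysosomal membrane, had 17893, 18451, 17348 and 18050, with -0.04 turning to 0.02 under that scaling. Lamp2, which shares this role and has a splice form used in chaperone-mediated autophagy, had 10266, 11310, 10800 and 11607. Grtp1 on the opposite strand shares 49.2% of the exon bases of Lamp1 and Fdft1 shares 15.4% of those of Ctsb.

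Levels between genes can be compared per kilobase only, and 2 lengths were used, the canonical transcript and the union of all exons. Bnip3 had the highest mean level of the 34 under both, with 12747 normalized counts per kilobase of canonical transcript and 10764 per kilobase of exon union. Lamp1 (6976 and 3441) and Ctsd (6534 and 5023) held the second and the third place, in an order that depended on the length used. Atg7 had the lowest level under both, 81.7 and 37. Between these ends the order moved with the length, as for Map1lc3b, which had 4569 per kilobase of canonical transcript and 533 per kilobase of exon union, and no order is given there.

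The differences after treatment were set beside those between libraries of the same group. The measures are unlike, since a fold change compares groups of 2 libraries and a replicate difference compares single libraries. Averages vary less than single libraries, so a smaller fold change does not show that treatment had no effect. Over the 34 genes the median absolute log2 difference was 0.088 between the controls, 0.093 between the EDA-A2 libraries and 0.058 between the conditions. The fold change was larger than both replicate differences for 7 genes (20.6%), namely Ulk1, Becn1, Pik3c3, Atg2a, Wipi1, Atg12 and Atg16l1, and for 32.1% of all genes tested. For the other 27 the single libraries of at least 1 group differed by more than the fold change between the groups. Across all genes the corresponding medians were 0.132, 0.098 and 0.112.

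**Figure D3:**
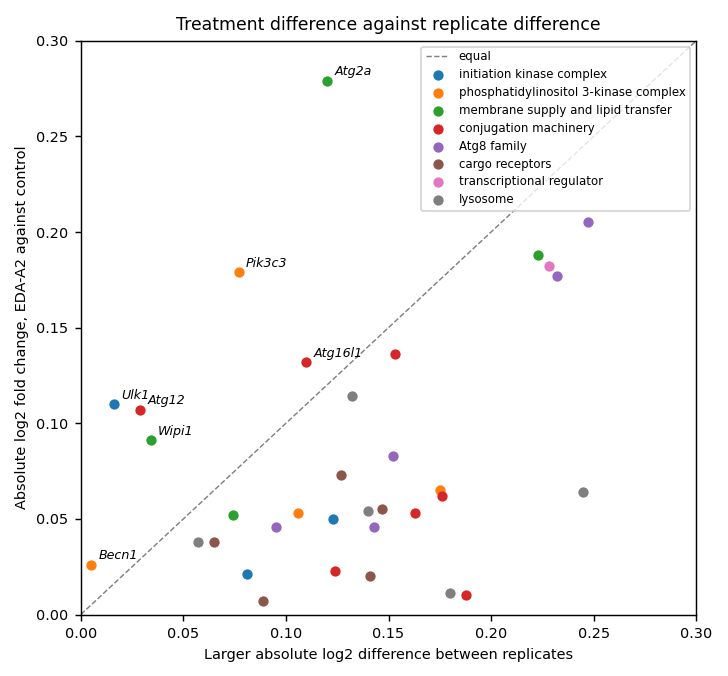
Absolute log2 fold change between conditions (vertical axis) against the larger absolute log2 difference between the 2 libraries of a group (horizontal axis), 1 point per gene, coloured by step. The 7 named genes lie above the dashed line of equality and the other 27 below it, with Atg2a highest at 0.28.

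The wider pathway was followed through 207 further genes in 10 lists, of which 196 were tested. By edgeR 3 of them were called higher (1.53%) and 3 lower (1.53%), beside 2.45% and 2.13% of all genes, and their median log2 fold change was -0.01. Nrbf2, a subunit that joins the Becn1 and Atg14 complex, had 619, 624, 794 and 825 normalized counts and rose by 30.2% (edgeR log2 fold change 0.38, SE 0.088, adjusted p = 0.0219). It was the called gene of 20 other core autophagy genes. Among 15 other lysosomal proteases and cystatins, Cstb, the cystatin B that inhibits cysteine cathepsins, had 1110, 1252, 1539 and 1776 and rose (edgeR log2 fold change 0.49, SE 0.090, adjusted p = 0.00453). In the same list Lgmn, the lysosomal asparaginyl endopeptidase that processes cathepsins, had 8590, 8170, 6846 and 7202 and fell (edgeR log2 fold change -0.26, SE 0.068, adjusted p = 0.045), and under scaling to total counts its adjusted p was 0.108. Atp6v0a1, a membrane subunit of the V-ATPase proton pump, had 1707, 1821, 2227 and 2262 and rose (edgeR log2 fold change 0.35, SE 0.072, adjusted p = 0.0105), the call among 18 tested V-ATPase genes, 9 of which were above 0 and 9 below. Flcn, folliculin, which acts on the Rag GTPases at the lysosome and thereby on mTORC1 and Tfeb, had 3311, 3400, 2551 and 2705 and fell (edgeR log2 fold change -0.35, SE 0.069, adjusted p = 0.00698), the call among 31 genes of mTORC1, AMPK and nutrient sensing. Stbd1, which binds glycogen and is linked to its delivery to lysosomes, had 19101, 14763, 12272 and 12866 and fell among 18 other cargo receptors and mitophagy genes (edgeR log2 fold change -0.43, SE 0.096, adjusted p = 0.0173). Control 1 was far above the rest for Stbd1, and without that library the log2 fold change was -0.23 by edgeR.

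With no filter on low counts none of these 6 calls held by edgeR (adjusted p 0.117 to 0.319). Only 64 higher and 22 lower calls then remained over 25545 genes tested. Nrbf2 missed the threshold by the DESeq2 Wald test (adjusted p = 0.0521). With each library left out the log2 fold change ran from 0.353 to 0.407 for Nrbf2, 0.382 to 0.588 for Cstb and 0.299 to 0.392 for Atp6v0a1. It ran from -0.395 to -0.311 for Flcn, -0.293 to -0.219 for Lgmn and -0.606 to -0.234 for Stbd1. All 6 kept their direction. In the other 5 lists no gene was called by edgeR or by the DESeq2 Wald test, whose 2 higher and 3 lower calls in the wider pathway were the remaining 5 named genes. At an unadjusted p under 0.05 edgeR gave 15.6% of all genes. In these lists it gave 0 of 17 genes of autophagosome-lysosome fusion and 1 of 8 MiT/TFE and other transcriptional regulators (12.5%). It gave 2 of 32 lysosomal hydrolases (6.25%), 2 of 23 lysosomal membrane and accessory proteins (8.7%) and 3 of 14 genes that sort lysosomal enzymes (21.4%). The medians of these 5 lists ran from -0.03 for lysosomal hydrolases to 0.03 for fusion, where 12 genes were above 0 and 5 below. Over the 196 tested genes both EDA-A2 libraries lay above both controls for 20.4% and below both for 25.5%. All genes had 22.8% and 22.2%. By list the share above ran from 6.25% (hydrolases) to 47.1% (fusion). The share below ran from 4.35% (lysosomal membrane and accessory proteins) to 44.4% (other cargo receptors and mitophagy genes).

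**Figure D4:**
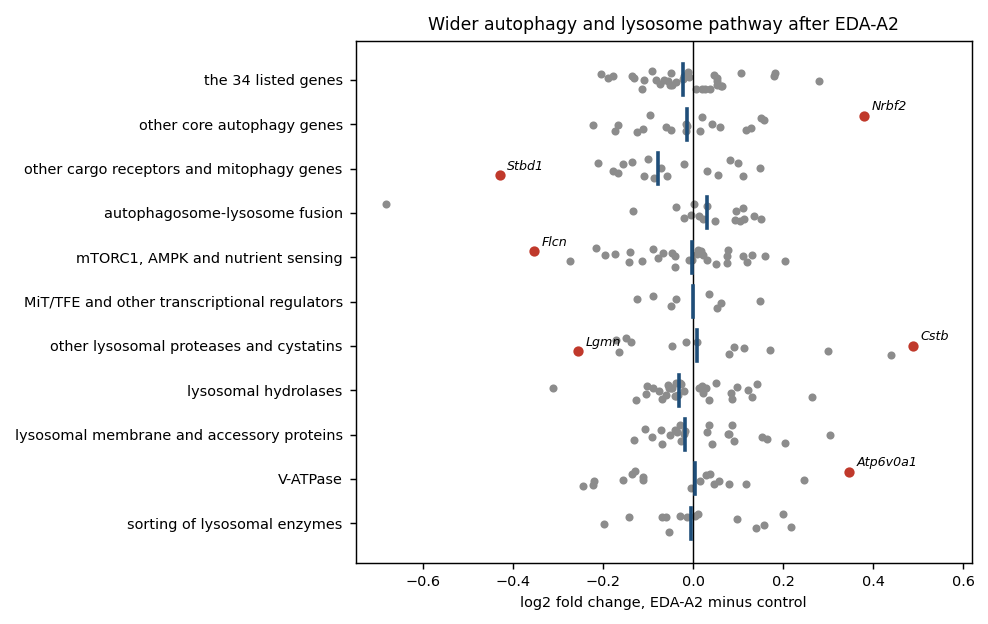
Log2 fold change (horizontal axis, EDA-A2 minus control) of every tested gene, 1 point per gene, in the 34 listed genes and in 10 further lists of the pathway, with the list median as a blue bar and called genes in red with their names. The medians lie between -0.08 and 0.03, and the 6 called genes are 3 on either side of 0.

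The cultures carried the markers of their label. Myotube markers held 803981 to 837649 summed normalized counts in controls and 604559 and 610772 in EDA-A2 libraries. Of 12 tested, 6 fell by edgeR (50%, all genes 2.13%), namely Actn2, Myh3, Mylpf, Acta1, Myh8 and Tnnc2. Mymx, a fusion factor, rose by edgeR (8.33% of the list, all genes 2.45%). In bulk RNA, fewer cells of a type and less RNA per cell cannot be told apart. Of 6 myoblast markers Vcam1 rose and Cdh15 fell by edgeR, each 16.7% of the list. The 6 summed to 18446 to 19705 in controls and 19527 to 19825 in EDA-A2 libraries. Macrophages, which carry abundant cathepsins and Lamp1, were represented by 4 of 10 markers with enough counts to be tested, and none was called by edgeR. Of these 4, 2 had an unadjusted p under 0.05 by edgeR (50%, all genes 15.6%). All 4 log2 fold changes were above 0, from 0.30 to 0.94 with a median of 0.62 (median SE 0.286). Both EDA-A2 libraries lay above both controls for 3 of them (75%, all genes 22.8%). The 10 markers summed to 309 and 274 in controls and 439 and 330.2 in EDA-A2 libraries, with Fcgr1 and Tyrobp at 0 in every library, where a count of 0 allows up to 3 counts or 0.101 to 0.102 CPM, counts scaled to library size (counting error only). Fibroblast markers had 6 of 9 tested and none called, 2 with an unadjusted p under 0.05 by edgeR (33.3%, all genes 15.6%). They summed to 50511 and 52770 in controls and 48415 and 49221 in EDA-A2 libraries. Lum and Thy1 of that list were at 0 in every library. So was Emcn of the endothelial markers, of which 1 was tested and not called. All 6 markers of dividing cells were tested by edgeR, with none called and none with an unadjusted p under 0.05. They summed to 22337 and 26522 in controls and 24765 and 24318 in EDA-A2 libraries. The part of these marker shifts in the values of the 34 genes was not tested.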

How the data were processed

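The bulk RNA-seq data comprised 4 libraries of primary myotubes, 2 control and 2 EDA-A2. The authors deposited raw counts of read pairs per Ensembl gene, 1 table per library, with no normalization or pooling. According to the submitters' processing notes and the study's methods, reads from stranded libraries were checked with FastQC 0.11.9, trimmed with Trim Galore 0.6.5, mapped to GRCm39 with STAR 2.7.3a and counted with HTSeq 0.11.1. Annotation release and strand option are not given in the sources used here. HTSeq's summary lines stayed out of library sizes and tests: 6.68% to 7.4% of pairs fell outside genes, 0.946% to 0.986% were ambiguous and 4.56% to 4.76% did not map uniquely. Gene symbols and coordinates came from GENCODE M39, which held 52610 of 53647 IDs, and 1 of 289 genes in the lists was not matched. Copies were sought with blastn 2.17.0.

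Counts were fitted in R 4.3.3 with edgeR 4.0.16 (TMM, filterByExpr with a minimum count of 10 and total of 15, quasi-likelihood test, condition only, Benjamini-Hochberg over all genes tested, threshold 0.05). TMM factors were 0.972 and 0.991 for control and 1.026 and 1.013 for EDA-A2. The steps were tested on simulated data with larger changes than those of the 34 genes, so that test does not show how well small changes are found. The study's methods name no test for these counts. The members and lists were chosen with earlier results of these data known. All 34 genes could be named, in the other pathway lists called genes (at most 5 by smallest p), and in marker lists called genes and genes at 0. Promoters were to be shown for called genes only, and since none was called, those shown fall outside that rule.

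Alternatives were DESeq2 size factors, total counts or upper quartile factors, no filter, a minimum of 10 counts per library, the Wald test of DESeq2 1.42.0, a replicate block and leaving out each library.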

Additional observations from a re-analysis of the deposited data

How the results depend on the processing

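No autophagy or lysosome gene of the 34 was called in either direction under any alternative that kept all 4 libraries. The lowest adjusted p among these was 0.0763, by edgeR with a replicate block. With no filter edgeR called 64 higher and 22 lower of 25545 genes, so a count of 0 among the 34 says little there. Fits that leave out a library have a lone library in a group, and only their sizes of change are given in this paragraph. Over the 11 alternatives, in 374 pairs of gene and alternative, the direction was kept in 341 and changed in 33, in 18 genes. No changed value exceeded 0.081 in size on the log2 scale. The median log2 fold change of the 34 genes was -0.02, and 0.034 under scaling to total counts, which moved the median of all genes to 0.053 and put 23 of the 34 above 0. With each library left out it ran from -0.061 to 0.006. Under scaling to total counts the log2 fold change was 0.004 for Atg13, 0.003 for Wipi2, 0.045 for Atg4b, 0.032 for Atg10, 0.008 for Gabarap, 0.000 for Bnip3, 0.036 for Bnip3l, 0.043 for Ctsd and 0.017 for Lamp1. With each library left out, log2 fold changes that crossed 0 ran from -0.02 to 0.061 for Ulk2, -0.113 to 0.01 for Atg13, -0.001 to 0.104 for Pik3r4, -0.026 to 0.15 for Atg14, -0.031 to 0.132 for Atg3, -0.107 to 0.081 for Atg4b, -0.026 to 0.15 for Atg5, -0.086 to 0.038 for Atg10 and -0.003 to 0.092 for Map1lc3b. They ran from -0.118 to 0.024 for Gabarap, -0.039 to 0.05 for Sqstm1, -0.129 to 0.018 for Bnip3, -0.091 to 0.05 for Bnip3l, -0.184 to 0.061 for Ctsb, -0.103 to 0.076 for Ctsd and -0.016 to 0.123 for Lamp2.

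Of the other pathway genes, edgeR called 3 higher and 3 lower. With no filter on low counts, which raised the genes tested to 25545 and left 64 higher and 22 lower calls in all, it called 0 and 0 of them. With each library left out it called 0 to 1 higher and 0 to 2 lower. All genes then gave 7 higher and 0 lower calls without control 1, 9 and 0 without control 2, 217 and 134 without EDA-A2 1, and 223 and 193 without EDA-A2 2, against 371 and 323 with all libraries. These fits have 3 libraries, and the lone library is assumed to vary like the other group. With the replicate block the calls were 6 higher and 8 lower among the other pathway genes and 537 and 529 among all genes. Over all genes the deviations of same-numbered libraries had a correlation of 0.057, and the labels do not say that a number marks a shared culture, so the block was not used for the values reported. DESeq2 called 294 higher and 271 lower, and scaling to total counts 485 and 194. The cause of these differences was not tested. Total counts per library were nearly equal.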
